A study of Mus musculus with 28 samples.

Results

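The comparison set mice that went through auditory fear conditioning, where a foot shock follows a tone, and received vehicle against mice that were neither conditioned nor treated. It used 8 of the 28 RNA-seq libraries of the series, the 4 titled Vehicle (Vehicle 3, 16, 23 and 29) and the 4 titled Basal (Basal 1, 9, 14 and 27), chosen by their titles. Every library held RNA of the dorsal hippocampus from male C57Bl6 mice, and the labels name no transgene or deletion in any group. The Vehicle mice were labelled as conditioned, the Basal mice as not conditioned and not treated, so that conditioning, its context and the handling for vehicle cannot be told apart. The route of the vehicle, the time between conditioning and dissection and the age of the mice were in none of the sources used here.

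Glucocorticoids are steroid hormones that the adrenal gland releases in response to stress, and corticosterone is the main one of the mouse. In the brain they bind the glucocorticoid receptor (gene Nr3c1) and, with higher affinity, the mineralocorticoid receptor (gene Nr3c2). The bound receptor moves to the nucleus and binds an inverted repeat of a short motif, through which it raises the transcription of many genes in neurons, glia and vessels. The hippocampus is rich in both receptors and takes part in the memory of the place where a shock was received.

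Gene counts totalled 18.62 to 19.14 M in the Vehicle libraries and 18.53 to 20.06 M in the Basal libraries (M, 10 to the power of 6). Levels are in CPM, that is counts per 1 M after TMM normalization of the library sizes, and values per library follow the order Vehicle 3, 16, 23 and 29, then Basal 1, 9, 14 and 27. Markers of the hippocampal fields were present in every library. The 15 tested CA1 markers summed to 742 to 1421 CPM in Vehicle and 1264 to 1553 CPM in Basal libraries, and the 17 dentate gyrus markers to 1351 to 1701 CPM in Vehicle and 1508 to 1840 CPM in Basal libraries. Single libraries stood apart. The CA1 score, the mean of its genes' centred log2 CPM, was -0.69 in Vehicle 16, and the dentate gyrus score was -0.46 in Vehicle 29. The CA2 score was -1.20 in Vehicle 29 as well, and it was a covariate in no fit. The CA2 markers summed to 153 CPM in that library and to 261 to 288 CPM in Basal libraries. Basal 9 lay nearer to the Vehicle libraries than the other Basal libraries did at many of the genes below. The mitochondrial share of the gene counts was 7.90% ± 1.49 in Vehicle and 5.52% ± 1.46 in Basal libraries (SD, n = 4 each, exact permutation p = 0.0571, two-sided, where 0.0286 is the smallest p that 4 against 4 allow). After Benjamini-Hochberg adjustment over the library measures tested, the permutation p was 0.257. The share was 7.54% in Basal 9, 4.03% to 5.27% in the other Basal libraries and 5.90% to 9.21% in Vehicle libraries. Reads not aligned, relative to gene counts, were 11.8% in Basal 9, 7.22% to 9.30% in the other Basal libraries and 9.69% to 13.3% in Vehicle libraries. The part of the mitochondrial share in the results was not tested beyond the fit with that share as a covariate, and that of the reads not aligned was not tested. For several genes named below, an exon of another tested gene lies on the opposite strand (Plin4, Lrig1, Mcam, Htr1b, Fat4, Fam13c, Mat2a, Mt2, Sox21, Tiparp, St6galnac5, Spred3, Nfix, Pnma1 and Nr3c2). Whether the counting used strand is not stated in the sources at hand, so reads over those shared bases may belong to either gene.

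Of 16735 tested genes, 688 (4.11%) were called, 274 of them (1.64%) above and 414 (2.47%) below Basal in the Vehicle libraries (edgeR quasi-likelihood test, adjusted p under 0.05). Most changes were moderate in size. Among the higher genes 138 exceeded 1.5-fold, 69 exceeded 2-fold and 11 exceeded 4-fold, and among the lower genes 191, 45 and 2 did. The median log2 fold change was 0.59 over the higher genes and -0.56 over the lower genes, against 0.0027 over all tested genes. The 4 Vehicle libraries lay all above or all below the 4 Basal libraries at 211 of the 274 higher and 325 of the 414 lower genes, beside 1699 of all tested genes (10.2%), 735 higher (4.39%) and 964 lower (5.76%). The calls depended on single libraries to a degree. The count of 688 called genes became 346, 382 and 384 without Basal 14, 1 and 27, and 940 without Basal 9. A smaller set of 262 genes (1.57%), 109 higher (0.651%) and 153 lower (0.914%), passed with each of the 8 libraries left out in turn, and calls that did so are said below to hold. The labels do not say whether each library came from a separate mouse, so p-values measure the spread between libraries. The fit estimated that spread over all 28 libraries of the 6 groups, and the fits that left out a library kept the other groups too. A fit of the Vehicle and Basal libraries alone called 355 genes (140 higher, 215 lower).

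**Figure D1:**
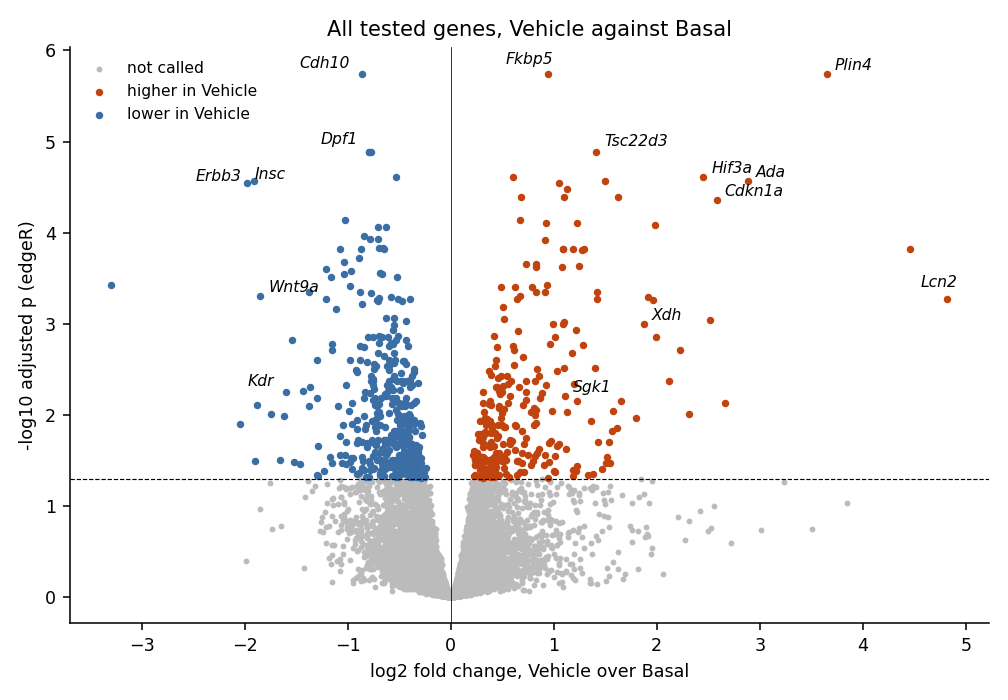
Each point is a tested gene, with its log2 fold change of Vehicle over Basal on the horizontal axis and -log10 of its edgeR adjusted p on the vertical axis. The 274 genes higher in Vehicle are orange, the 414 lower genes are blue, and the dashed line marks an adjusted p of 0.05. Plin4 and Lcn2 lie far to the right and Erbb3, Insc and Wnt9a far to the left.

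Target genes of the glucocorticoid receptor formed the list with the most calls. Its members were chosen with earlier results of these data known, so the counts below are no independent support. Of 40 tested genes known as targets of the receptor, 27 were higher in Vehicle, 1 (Cebpd) was lower and 12 were not called, beside 1.64% and 2.47% of all tested genes. Their median log2 fold change was 0.90, and 22 of the 27 rises held. Summed over the list, the level was 3018 to 3324 CPM in Vehicle and 1816 to 2450 CPM in Basal libraries. The list score was highest among the Basal libraries in Basal 9 (-0.40), with the other Basal libraries from -0.82 to -0.69 and the Vehicle libraries from 0.11 to 0.44. Without Basal 9 the list had 28 higher and 1 lower members, and without both Vehicle 16 and Vehicle 29 it had 22 higher and 0 lower members. With the dentate gyrus and CA1 scores as covariates the count was 15 higher and 0 lower. The call of Cebpd, a transcription factor of the acute phase, was lost without Basal 1 (adjusted p = 0.0979), Basal 14 (0.282), Vehicle 16 (0.0691) or Vehicle 29 (0.178).

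Of the 35 target genes with a promoter window, 5 held a form of the receptor's binding motif, and the windows of the 4 that were called, all higher, are shown. The fifth was Fam107a, a stress-responsive gene, which was not called (log2 fold change 0.58 ± 0.17, SE, edgeR adjusted p = 0.0518). The windows are the 250 bases upstream of the start site in RefSeq (GRCm38.p6), 5′ to 3′ on the strand of the gene. Capitals mark the letters GNACA and TGTNC with the 3 bases between them, a looser form of the receptor's inverted repeat that reads the same on both strands.
Map3k6: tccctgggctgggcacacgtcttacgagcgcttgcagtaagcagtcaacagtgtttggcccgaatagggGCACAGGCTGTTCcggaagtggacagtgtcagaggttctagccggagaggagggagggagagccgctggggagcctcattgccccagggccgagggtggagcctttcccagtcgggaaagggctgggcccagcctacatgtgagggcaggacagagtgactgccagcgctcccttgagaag
Txnip: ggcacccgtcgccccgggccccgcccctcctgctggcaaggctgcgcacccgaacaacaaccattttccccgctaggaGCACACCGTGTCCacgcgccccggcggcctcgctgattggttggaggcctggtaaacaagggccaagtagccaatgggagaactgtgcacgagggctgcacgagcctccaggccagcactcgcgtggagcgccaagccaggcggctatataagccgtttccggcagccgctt
Mt1: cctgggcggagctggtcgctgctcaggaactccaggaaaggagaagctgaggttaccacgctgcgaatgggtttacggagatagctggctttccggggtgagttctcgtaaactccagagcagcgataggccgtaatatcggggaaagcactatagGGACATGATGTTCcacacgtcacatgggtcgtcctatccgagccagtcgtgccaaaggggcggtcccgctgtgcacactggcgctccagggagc
Sgk1: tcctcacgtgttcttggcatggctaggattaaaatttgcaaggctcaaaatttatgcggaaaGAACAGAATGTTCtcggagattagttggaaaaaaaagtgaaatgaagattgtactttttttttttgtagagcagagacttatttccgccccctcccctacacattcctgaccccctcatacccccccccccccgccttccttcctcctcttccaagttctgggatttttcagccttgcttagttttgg
They lie at chr4:133240568-133240817 (Map3k6), chr3:96557707-96557956 (Txnip), chr8:94178839-94179088 (Mt1) and chr10:21993640-21993889 (Sgk1), all on the plus strand. Relative to the start site, the element begins at -181 in Map3k6, -172 in Txnip, -94 in Mt1 and -188 in Sgk1. A window of 250 bases before and 50 after the start was matched for 11798 of the 16730 tested symbols. In these windows the looser element occurred in 6 of 209 genes called higher (2.87%), in 1 of 301 genes called lower (0.332%) and in 53 of 11798 tested genes (0.449%), beside 156 of all 32851 windows (0.475%). Besides the genes shown, the called genes that carry it are Galnt11 and Ptpdc1, which were higher, and Eml1, which was lower. The full repeat, AGAACA and TGTTCT around 3 bases, the same on both strands, was found in Sgk1 alone among the tested genes and in 3 of all 32851 windows. The single motif AGAACA, searched on both strands and contained in the full repeat, occurred in 29 of 209 higher (13.9%), 47 of 301 lower (15.6%) and 1770 of 11798 tested genes. A match describes these letters in these windows and shows no binding.

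Fkbp5, Tsc22d3, Sgk1 and Errfi1 were among the higher target genes. Fkbp5 (chromosome 17, 28399094 to 28517527, GRCm38), a cochaperone that lowers the receptor's affinity for hormone, stood at 124, 115, 137 and 144 CPM in the Vehicle libraries, against 61.02, 80.6, 59.9 and 68.4 CPM in the Basal libraries. All Vehicle libraries were above all Basal libraries, and Basal 9 was the highest of the Basal libraries. Fkbp5 changed by 0.95 ± 0.10 on the log2 scale (SE, edgeR adjusted p = 1.8e-06). Tsc22d3 (chromosome X, 140539528 to 140600659), which encodes the anti-inflammatory protein GILZ, stood at 114, 117, 105 and 149 CPM in the Vehicle libraries, against 39.2, 63.2, 42.1 and 38.1 CPM in the Basal libraries. The groups did not overlap, and Basal 9 stood well above the other Basal libraries. Tsc22d3 changed by 1.41 ± 0.17 on the log2 scale (SE, edgeR adjusted p = 1.29e-05). Sgk1 (chromosome 10, 21882184 to 21999903), a kinase that regulates ion channels and transporters, stood at 198, 161, 129.8 and 143 CPM in the Vehicle libraries, against 55.5, 130.1, 58.3 and 49.6 CPM in the Basal libraries. Here Basal 9 reached the Vehicle range, so the groups overlapped, while the other Basal libraries lay far below. Sgk1 changed by 1.11 ± 0.24 on the log2 scale (SE, edgeR adjusted p = 0.00615), which was lost in a fit of the Vehicle and Basal libraries alone (adjusted p = 0.149) and with the dentate gyrus and CA1 scores as covariates (adjusted p = 0.1002). Errfi1, an inhibitor of epidermal growth factor receptors, had the same shape, at 92.1, 66.5, 80.5 and 71.3 CPM in the Vehicle libraries, against 47.7, 70.3, 46.05 and 47.4 CPM in the Basal libraries. Basal 9 again lay inside the Vehicle range. Errfi1 changed by 0.55 ± 0.12 on the log2 scale (SE, edgeR adjusted p = 0.0074), but it missed the threshold in a fit of these 2 groups alone (adjusted p = 0.0857).

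Regulators of transcription and of cell division gave some of the largest rises. Hif3a (chromosome 7, 17031507 to 17062427), a hypoxia-inducible factor that can restrain its relatives, stood at 13.1, 13.4, 11.8 and 16.3 CPM in the Vehicle libraries, against 1.43, 5.26, 2.03 and 1.35 CPM in the Basal libraries. The lowest Vehicle library was more than 2 times the highest Basal library, which was Basal 9. Hif3a changed by 2.45 ± 0.31 on the log2 scale (SE, edgeR adjusted p = 2.46e-05). Of 20 genes of the hypoxia response, 2 were higher (Hif3a and Ddit4) and 0 lower, with a median of 0.08. Of all tested genes, 1.64% were higher and 2.47% lower. The call of Ddit4 was lost without Basal 1 (edgeR adjusted p = 0.0641), Basal 14 (0.0876), Basal 27 (0.0900) or Vehicle 3 (0.0778). Klf15 (chromosome 6, 90462576 to 90475238), a Kruppel-like factor of amino acid and lipid metabolism, averaged 31.1 ± 2.13 CPM in Vehicle and 16.3 ± 2.93 CPM in Basal libraries (SD, n = 4 each), a log2 fold change of 0.94 ± 0.15 (SE, edgeR adjusted p = 0.000373), which just missed the threshold with the dentate gyrus and CA1 scores as covariates (adjusted p = 0.0508). Klf16, of the same family, went the other way, with 30.04 ± 2.301 CPM in Vehicle and 48.8 ± 7.096 CPM in Basal libraries (SD, n = 4 each) and a log2 fold change of -0.70 ± 0.10 (SE, edgeR adjusted p = 0.000118). Cdkn1a (chromosome 17, 29090976 to 29100727), the cyclin-dependent kinase inhibitor p21, stood at 51.8, 45.9, 40.2 and 39.6 CPM in the Vehicle libraries, against 6.71, 11.7, 5.99 and 5.36 CPM in the Basal libraries. Every Vehicle library was more than 3 times the highest Basal library. Cdkn1a changed by 2.58 ± 0.34 on the log2 scale (SE, edgeR adjusted p = 4.39e-05). Of 19 cell cycle inhibitors, Gadd45 genes and p53 targets, 2 were higher (Cdkn1a and Gadd45g, 10.5%, beside 1.64%) and 0 lower, and only the rise of Cdkn1a held. That of Gadd45g was lost without each of 6 libraries, with adjusted p-values from 0.0583 (without Vehicle 29) to 0.136 (without Basal 1).

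Some genes of fat and fuel use were higher. Of 28 genes of lipid droplets, lipolysis and fatty acid use, 5 were higher (17.9%, beside 1.64% of all tested genes), 0 lower and 23 not called, and all 5 rises held. Plin4, Pdk4 and Angptl4 are also on the target list. The median of the lipid list was 0.08, and -0.02 with the dentate gyrus and CA1 scores as covariates. Plin4 (chromosome 17, 56100591 to 56109803), a coat protein of lipid droplets, stood at 17.8, 19.1, 9.48 and 14.2 CPM in the Vehicle libraries, against 0.921, 2.14, 1.27 and 0.531 CPM in the Basal libraries. It was at least 9.48 CPM in every Vehicle library and at most 2.14 CPM in the Basal libraries, with that highest value in Basal 9. Plin4 changed by 3.65 ± 0.37 on the log2 scale (SE, edgeR adjusted p = 1.8e-06). Pnpla2, the lipase that starts the breakdown of stored fat, averaged 26.3 ± 5.15 CPM in Vehicle and 13.97 ± 2.13 CPM in Basal libraries (SD, n = 4 each), a log2 fold change of 0.91 ± 0.15 (SE, edgeR adjusted p = 0.000445). Pdk4, a kinase that turns cells from glucose towards fat, averaged 17.3 ± 4.43 CPM in Vehicle and 9.11 ± 1.27 CPM in Basal libraries (SD, n = 4 each), a log2 fold change of 0.92 ± 0.19 (SE, edgeR adjusted p = 0.00469). Angptl4, a secreted inhibitor of lipoprotein lipase, had a log2 fold change of 1.58 ± 0.36 (SE, edgeR adjusted p = 0.00911). The astrocyte enzyme Etnppl, which breaks down phosphoethanolamine, stood at 17.9, 30.9, 21.2 and 16.9 CPM in the Vehicle libraries, against 7.01, 5.75, 4.72 and 5.596 CPM in the Basal libraries. The groups lay far apart, and Vehicle 16 was the highest. Etnppl changed by 1.91 ± 0.31 on the log2 scale (SE, edgeR adjusted p = 0.00051). The calls of Pdk4 (adjusted p = 0.0927) and Angptl4 (0.0519) were lost without both Vehicle 16 and Vehicle 29, and those of Etnppl, Pdk4 and Angptl4 with the dentate gyrus and CA1 scores as covariates (0.0867 to 0.191).

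A pair of enzymes of purine breakdown, Ada and Xdh, was higher. Ada (chromosome 2, 163726584 to 163750239), adenosine deaminase, which turns adenosine into inosine, stood at 5.01, 3.03, 2.12 and 2.92 CPM in the Vehicle libraries, against 0.154, 0.877, 0.457 and 0.289 CPM in the Basal libraries. All Vehicle libraries exceeded 2 CPM and no Basal library reached 1 CPM. Ada changed by 2.88 ± 0.38 on the log2 scale (SE, edgeR adjusted p = 2.71e-05). Xdh (chromosome 17, 73883895 to 73950196), xanthine dehydrogenase, which makes uric acid, stood at 9.35, 7.23, 7.92 and 5.53 CPM in the Vehicle libraries, against 2.41, 2.03, 1.78 and 1.93 CPM in the Basal libraries. Vehicle and Basal libraries did not overlap, and the Basal libraries were close to each other. Xdh changed by 1.88 ± 0.34 on the log2 scale (SE, edgeR adjusted p = 0.00101). Of 17 genes of adenosine signalling and purine breakdown these 2 were higher (11.8%, beside 1.64% of all tested genes), 1 was lower (5.88%, beside 2.47%) and 14 were not called (median 0.06). The calls of Ada and Xdh held in all 19 alternative fits. The nucleoside transporter Slc29a2 was lower (log2 fold change -0.33 ± 0.10, SE, adjusted p = 0.047), a call lost without each of 7 libraries (adjusted p from 0.0503 without Vehicle 16 to 0.191 without Vehicle 29). The metallothioneins Mt1 and Mt2, small proteins that bind zinc and copper, were both higher. Mt2 averaged 177 ± 23.4 CPM in Vehicle and 76.2 ± 14.3 CPM in Basal libraries (SD, n = 4 each), a log2 fold change of 1.22 ± 0.22 (SE, edgeR adjusted p = 0.00116). For Mt1 the averages were 223 ± 38.4 CPM in Vehicle and 126 ± 17.1 CPM in Basal libraries (SD, n = 4 each), and the log2 fold change was 0.82 ± 0.17 (SE, edgeR adjusted p = 0.00429). Of 21 metallothionein and antioxidant genes 3 were higher (with Hmox1, 14.3%, beside 1.64%) and 0 lower (median 0.07). The call of Hmox1 did not hold. Both metallothionein calls were lost with the dentate gyrus and CA1 scores as covariates (adjusted p = 0.0582 for Mt2 and 0.147 for Mt1), where the list had 1 higher member. Of 29 heat shock and endoplasmic reticulum chaperones 0 passed in either direction (edgeR; median 0.09).

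Proteins of the arrestin and GILZ families, and genes of glia and vessels, were also among the higher members of the target list. Arrdc2 (chromosome 8, 70835129 to 70839720), an alpha arrestin, stood at 38.9, 30.9, 27.6 and 30.5 CPM in the Vehicle libraries, against 8.497, 15.9, 8.58 and 8.59 CPM in the Basal libraries. No Vehicle library fell in the Basal range, and Basal 9 lay well above the other Basal libraries. Arrdc2 changed by 1.63 ± 0.22 on the log2 scale (SE, edgeR adjusted p = 4.02e-05). Txnip, an alpha arrestin that binds thioredoxin and limits glucose uptake, averaged 37.3 ± 8.84 CPM in Vehicle and 17.4 ± 2.96 CPM in Basal libraries (SD, n = 4 each), a log2 fold change of 1.10 ± 0.22 (SE, edgeR adjusted p = 0.00307), a call lost with the dentate gyrus and CA1 scores as covariates (adjusted p = 0.0566). With Tsc22d3 they were the called members of the 9 tested alpha arrestin and TSC22 domain genes, all 3 higher (33.3%, beside 1.64% of all tested genes) and holding. Mertk (chromosome 2, 128698956 to 128802894), a receptor with which glia take up dying cells and synapses, stood at 47.3, 51.9, 50.1 and 61.9 CPM in the Vehicle libraries, against 24.9, 28.8, 22.4 and 25.8 CPM in the Basal libraries. Each Vehicle library was above each Basal library by a wide margin. Mertk changed by 1.05 ± 0.14 on the log2 scale (SE, edgeR adjusted p = 2.89e-05). Gjb6, the astrocyte gap junction protein connexin 30, averaged 74.6 ± 10.4 CPM in Vehicle and 35.4 ± 5.46 CPM in Basal libraries (SD, n = 4 each), a log2 fold change of 1.08 ± 0.17 (SE, edgeR adjusted p = 0.000241). Mfsd2a, which carries omega-3 lipids across the blood-brain barrier, averaged 28.4 ± 6.02 CPM in Vehicle and 13.4 ± 2.54 CPM in Basal libraries (SD, n = 4 each), a log2 fold change of 1.09 ± 0.16 (SE, edgeR adjusted p = 0.000152). Map3k6, a stress kinase, rose by 1.42 ± 0.24 (SE, edgeR adjusted p = 0.000445) on the log2 scale. Lcn2, a secreted iron-siderophore carrier, had 69 counts over the Vehicle and 2 over the Basal libraries, a ratio of 35.1 (95% exact interval 9.34 to 295, counting error only). Its counts in Basal came from Basal 27, and the other 3 Basal libraries were at 0 (adjusted p = 0.000534).

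**Figure D2:**
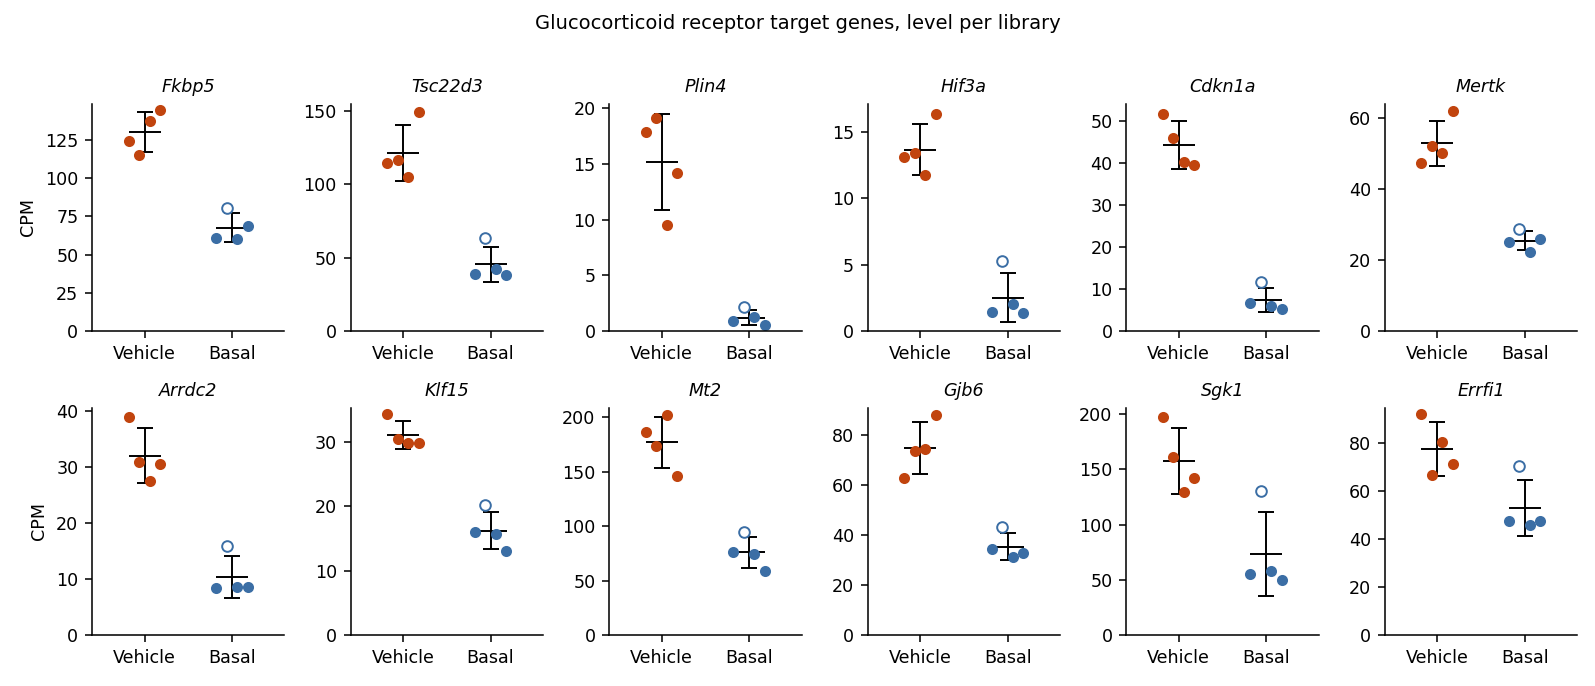
Level in CPM of 12 target genes of the glucocorticoid receptor in each library, with the 4 Vehicle libraries on the left (orange) and the 4 Basal libraries on the right (blue, Basal 9 as an open circle), and bars at the mean ± SD. The groups do not overlap except at Sgk1 and Errfi1, where Basal 9 lies inside the Vehicle range, and Basal 9 is the highest Basal library in each panel.

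Not every known target followed. Per1, a clock gene that the receptor also drives, stood at 58.1, 53.8, 54.4 and 48.05 CPM in the Vehicle libraries, against 60.5, 52.9, 53.3 and 51.2 CPM in the Basal libraries. The groups overlapped throughout, and its log2 fold change was -0.02 ± 0.12 (SE, adjusted p = 0.954). Klf9 (0.32, adjusted p = 0.0554), Fam107a (0.58, adjusted p = 0.0518) and Slc2a1 (0.88, adjusted p = 0.0511) lay just outside the threshold, and Dusp1, Bcl6 and Cebpb were among the other members that did not pass. These were chosen after their values were seen. The receptor genes themselves were lower. Nr3c1 (chromosome 18, 39410545 to 39519421) stood at 86.96, 78.4, 84.6 and 81.1 CPM in the Vehicle libraries, against 129, 96.7, 123 and 122 CPM in the Basal libraries. The Vehicle libraries lay close together and below every Basal library, of which Basal 9 was the lowest. Nr3c1 changed by -0.51 ± 0.09 on the log2 scale (SE, edgeR adjusted p = 0.00135), and it was not called with the dentate gyrus and CA1 scores as covariates (adjusted p = 0.116). Nr3c2 stood at 344, 211, 306 and 182 CPM in the Vehicle libraries, against 369, 383, 356 and 369 CPM in the Basal libraries. Vehicle 16, with the low CA1 score, and Vehicle 29, with the low dentate gyrus and CA2 scores, were far below Vehicle 3 and Vehicle 23. The log2 fold change of -0.50 ± 0.14 (SE, edgeR adjusted p = 0.0379) became -0.18 without both (adjusted p = 0.611), and the call was also lost without Basal 1 (0.0839), Basal 9 (0.0628), Basal 14 (0.0800), Basal 27 (0.0884), Vehicle 16 (0.127) or Vehicle 29 (0.152) and with the dentate gyrus and CA1 scores (0.826), the mitochondrial share (0.134) or only these 2 groups (0.188). In bulk tissue, fewer cells of a type and less RNA per cell cannot be told apart. Among all 25 tested genes of the receptor's machinery and of steroid metabolism, Nr3c1 and Nr3c2 were the called genes (0 higher, 2 lower, median -0.07). The lower share was 8.0%, beside 2.47% of all tested genes.

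Growth factor signalling moved in both directions. Of 12 genes of ErbB receptors, neuregulins and their brakes, the inhibitors Lrig1 and Errfi1 were higher (16.7%, beside 1.64% of all tested genes). The receptor Erbb3 was lower (8.33%, beside 2.47%), and all 3 calls held. Erbb3 (chromosome 10, 128567523 to 128589652), a receptor for neuregulins, stood at 4.44, 4.62, 3.51 and 3.43 CPM in the Vehicle libraries, against 16.6, 10.7, 14.9 and 17.8 CPM in the Basal libraries. The highest Vehicle library was below the lowest Basal library, Basal 9. Erbb3 changed by -1.91 ± 0.25 on the log2 scale (SE, edgeR adjusted p = 2.71e-05). Lrig1 (chromosome 6, 94604529 to 94700158), which leads ErbB receptors to breakdown, stood at 36.2, 34.5, 33.97 and 30.9 CPM in the Vehicle libraries, against 23.5, 24.1, 20.3 and 21.4 CPM in the Basal libraries. The shift was small but even, with little spread in either group. Lrig1 changed by 0.60 ± 0.08 on the log2 scale (SE, edgeR adjusted p = 2.46e-05). Of 19 MAP kinase phosphatases and Sprouty-type brakes, Errfi1 was higher (5.26%, beside 1.64%) and 5 were lower (Dusp6, Dusp7, Spry2, Spred2 and Spred3, 26.3%, beside 2.47%, median -0.18). Spred3, an inhibitor of the Ras pathway, was the fall that held, at 40.1 ± 3.605 CPM in Vehicle and 53.8 ± 3.46 CPM in Basal libraries (SD, n = 4 each), a log2 fold change of -0.42 ± 0.09 (SE, edgeR adjusted p = 0.00424). The fall of Spry2 (-0.73 ± 0.16, SE, adjusted p = 0.00659) was lost without Basal 14 (adjusted p = 0.0537), and without both Vehicle 16 and Vehicle 29 the list had 1 higher and 1 lower member. With the dentate gyrus and CA1 scores as covariates it had 1 higher and 0 lower members, and the call of Spred3 was lost (adjusted p = 0.197).

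Some genes of vessel growth and of the cells around vessels were lower. Of 20 ligands and receptors of the VEGF, angiopoietin and PDGF families, 0 were higher and 5 lower (Kdr, Vegfc, Nrp2, Pdgfb and Pdgfrb). Of all tested genes, 1.64% were higher and 2.47% lower. The median of the list was -0.25, and the falls of Kdr, Vegfc and Pdgfrb held. The list summed to 316 to 371 CPM in Vehicle and 406 to 453 CPM in Basal libraries. Kdr (chromosome 5, 75932827 to 75978458), through which vascular endothelial growth factor acts on vessels, stood at 2.89, 4.31, 1.84 and 3.17 CPM in the Vehicle libraries, against 12.6, 4.82, 8.99 and 10.5 CPM in the Basal libraries. Basal 9 was close to the Vehicle libraries, and the groups did not overlap. Kdr changed by -1.59 ± 0.34 on the log2 scale (SE, edgeR adjusted p = 0.00556). Vegfc, a ligand of the family, averaged 1.53 ± 0.139 CPM in Vehicle and 2.97 ± 0.1896 CPM in Basal libraries (SD, n = 4 each), a log2 fold change of -0.95 ± 0.21 (SE, edgeR adjusted p = 0.0074). Pdgfrb (chromosome 18, 61045150 to 61085061), the receptor of pericytes, stood at 9.66, 9.08, 7.31 and 8.95 CPM in the Vehicle libraries, against 17.5, 13.3, 16.3 and 17.5 CPM in the Basal libraries. The groups lay apart, with Basal 9 the lowest of the Basal libraries. Pdgfrb changed by -0.88 ± 0.15 on the log2 scale (SE, edgeR adjusted p = 0.000444). Mcam (chromosome 9, 44134469 to 44142727), an adhesion molecule of pericytes and endothelium, stood at 19.6, 18.2, 15.9 and 14.4 CPM in the Vehicle libraries, against 32.9, 27.1, 32.3 and 33.8 CPM in the Basal libraries. Again no Vehicle library reached a Basal library. Mcam changed by -0.89 ± 0.14 on the log2 scale (SE, edgeR adjusted p = 0.000189). Of 17 pericyte markers 2 were lower (Pdgfrb and Mcam, 11.8%, beside 2.47%) and 0 higher, 15 of the 17 had a negative log2 fold change (median -0.31), and the list summed to 118.3 to 211.7 CPM in Vehicle and 153 to 245 CPM in Basal libraries. Of 26 endothelial markers 1 was higher (Mfsd2a, 3.85%, beside 1.64%) and 1 lower (Kdr, 3.85%, beside 2.47%), with a median of -0.18 and sums of 383 to 467 CPM in Vehicle and 412 to 513 CPM in Basal libraries. Their part in the falls of Kdr, Pdgfrb and Mcam was not tested. Kdr (adjusted p = 0.0532) and Vegfc (0.114) were not called with the dentate gyrus and CA1 scores as covariates, nor Vegfc without both Vehicle 16 and Vehicle 29 (0.0914).

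A further group of lower genes was named for small p-values, for size or for level, and it belongs to no single list. Cdh10 (chromosome 15, 18818947 to 19014236), a classical cadherin, stood at 28.3, 29.1, 25.9 and 26.6 CPM in the Vehicle libraries, against 51.5, 49.4, 49.6 and 48.97 CPM in the Basal libraries. The libraries of each group lay within a few CPM of each other, Basal 9 included. Cdh10 changed by -0.86 ± 0.09 on the log2 scale (SE, edgeR adjusted p = 1.8e-06). Cdh9 (chromosome 15, 16728756 to 16857094), a cadherin of the synapses between dentate gyrus and CA3 in the mouse, stood at 27.2, 30.3, 26.9 and 31.9 CPM in the Vehicle libraries, against 52.5, 45.9, 50.3 and 53.3 CPM in the Basal libraries. The gap between the groups was wider than the range within either. Cdh9 changed by -0.80 ± 0.10 on the log2 scale (SE, edgeR adjusted p = 1.29e-05). Kif21b (chromosome 1, 136131389 to 136177998), a kinesin of neuronal dendrites, averaged 34.9 ± 2.58 CPM in Vehicle and 60.5 ± 5.25 CPM in Basal libraries (SD, n = 4 each), a log2 fold change of -0.79 ± 0.10 (SE, edgeR adjusted p = 1.29e-05). Dpf1 (chromosome 7, 29303951 to 29318243), a subunit of the neuronal BAF chromatin remodeller, averaged 22.7 ± 1.76 CPM in Vehicle and 38.8 ± 3.66 CPM in Basal libraries (SD, n = 4 each), a log2 fold change of -0.77 ± 0.09 (SE, edgeR adjusted p = 1.29e-05). Cttnbp2, a cortactin-binding protein of dendritic spines, averaged 141 ± 10.4 CPM in Vehicle and 229 ± 13.9 CPM in Basal libraries (SD, n = 4 each), a log2 fold change of -0.70 ± 0.10 (SE, edgeR adjusted p = 8.66e-05). These 5 calls held in all 19 alternative fits. Fat4, a giant cadherin of planar cell polarity, had a log2 fold change of -1.16 ± 0.19 (SE, edgeR adjusted p = 0.000304), a call lost with the dentate gyrus and CA1 scores as covariates (adjusted p = 0.0601). Fam13c had a log2 fold change of -0.54 ± 0.07 (SE, edgeR adjusted p = 2.46e-05), and an exon of it shares 1055 bases with Phyhipl on the opposite strand.

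Guidance molecules gave more falls than rises. Of 60 semaphorins, plexins, ephrins, slits and their receptors 1 was higher (Efna5, 1.67%, beside 1.64% of all tested genes) and 4 lower (Sema4c, Sema6d, Efnb3 and Ephb3, 6.67%, beside 2.47%), 11 of the 60 had a positive log2 fold change, and the median was -0.24. Their sum was 3261 to 4657 CPM in Vehicle and 4721 to 4992 CPM in Basal libraries. The calls of Efna5 and Sema4c did not hold. Sema6d, a transmembrane semaphorin, stood at 69.9, 74.4, 64.8 and 55.2 CPM in the Vehicle libraries, against 119, 95.6, 105 and 94.5 CPM in the Basal libraries. There was no overlap between the groups, and Vehicle 29 was the lowest. Sema6d changed by -0.65 ± 0.10 on the log2 scale (SE, edgeR adjusted p = 0.000152). Efnb3, a ligand of Eph receptors, averaged 121 ± 8.05 CPM in Vehicle and 167 ± 10.1 CPM in Basal libraries (SD, n = 4 each), a log2 fold change of -0.47 ± 0.10 (SE, edgeR adjusted p = 0.00443). Ephb3, an Eph receptor, stood at 7.69, 8.52, 10.4 and 9.93 CPM in the Vehicle libraries, against 16.9, 9.32, 21.4 and 21.4 CPM in the Basal libraries. Basal 9 lay among the Vehicle libraries. Ephb3 changed by -0.92 ± 0.19 on the log2 scale (SE, edgeR adjusted p = 0.00319), but it missed the threshold in a fit of these 2 groups alone (adjusted p = 0.0869). The calls of Efnb3 (adjusted p = 0.145) and Ephb3 (0.0568) were lost with the dentate gyrus and CA1 scores as covariates, where the list had 0 higher and 1 lower member with a median of -0.12. The call of Efnb3 was also lost without both Vehicle 16 and Vehicle 29 (0.0780).

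**Figure D3:**
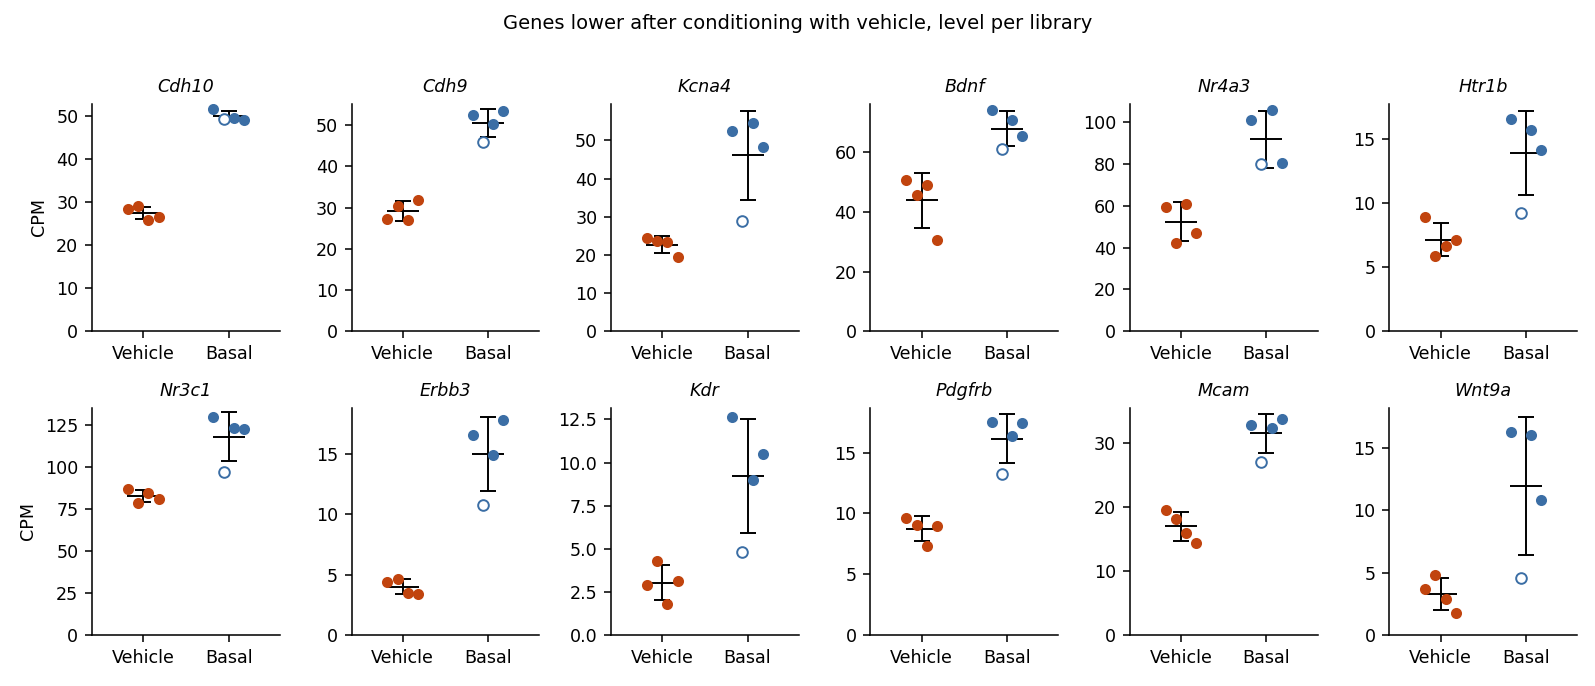
Level in CPM of 12 genes lower after conditioning with vehicle, in each library, with the 4 Vehicle libraries on the left (orange) and the 4 Basal libraries on the right (blue, Basal 9 as an open circle), and bars at the mean ± SD. The groups overlap at Wnt9a alone, where Basal 9 lies inside the Vehicle range, and Cdh10 has the tightest groups.

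Of the genes that neuronal activity induces, few of the early wave were called, and those of the later wave that were called were lower. Fos, the classic immediate early gene, stood at 3.77, 4.92, 6.86 and 5.88 CPM in the Vehicle libraries, against 5.12, 9.64, 3.66 and 4.73 CPM in the Basal libraries. The groups overlapped fully, with the highest value in Basal 9 (adjusted p = 0.937). Arc, an effector gene of synapses, stood at 63.3, 62.9, 99.5 and 56.1 CPM in the Vehicle libraries, against 99.05, 81.3, 88.8 and 98.7 CPM in the Basal libraries. Vehicle 23 was the highest of all 8 libraries and the other Vehicle libraries were below every Basal library, and the gene did not pass (adjusted p = 0.638). Of 39 immediate early genes 2 were higher (Tiparp and Gadd45g, 5.13%, beside 1.64% of all tested genes) and 1 lower (Nr4a3, 2.56%, near the 2.47% of all tested genes), with a median of -0.05. The call of Gadd45g did not hold. That of Tiparp held but was lost with the dentate gyrus and CA1 scores as covariates (adjusted p = 0.0669), where the list had 0 higher and 0 lower members. Nr4a3 (chromosome 4, 48045153 to 48086447), an orphan nuclear receptor induced by activity, stood at 59.4, 42.02, 60.8 and 46.8 CPM in the Vehicle libraries, against 101, 79.95, 106 and 80.4 CPM in the Basal libraries. No Vehicle library reached the lowest Basal library. Nr4a3 changed by -0.81 ± 0.16 on the log2 scale (SE, edgeR adjusted p = 0.00261). Of 27 genes of the later wave 0 were higher and 3 lower (Bdnf, Kcna4 and Kcnj4, 11.1%, beside 2.47% of all tested genes, median -0.14), and all 3 falls held. Bdnf (chromosome 2, 109674700 to 109727007), the neurotrophin that supports synaptic plasticity, stood at 50.5, 45.7, 48.9 and 30.5 CPM in the Vehicle libraries, against 74.02, 60.9, 70.8 and 65.3 CPM in the Basal libraries. The groups did not overlap, and Vehicle 29 was the lowest. Bdnf changed by -0.63 ± 0.14 on the log2 scale (SE, edgeR adjusted p = 0.00618). Without both Vehicle 16 and Vehicle 29 the calls of Nr4a3 (adjusted p = 0.0995) and Bdnf (0.119) were lost, as they were with the dentate gyrus and CA1 scores as covariates (0.183 and 0.121).

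The called channel and receptor genes of neurons were all lower, where 1.64% of all tested genes were higher and 2.47% lower. Of 54 potassium channel genes 0 were higher and 4 lower (Kcna4, Kcnj4, Kcng1 and Kcnv1, 7.41%, median -0.13), and all 4 falls held. In lists of this size, 0 higher members is near the share of all tested genes. Kcna4 and Kcnj4 were also counted in the later wave. Kcna4 (chromosome 2, 107290639 to 107298502), which carries a rapidly inactivating current, stood at 24.4, 23.5, 23.3 and 19.4 CPM in the Vehicle libraries, against 52.4, 28.99, 54.4 and 48.4 CPM in the Basal libraries. Basal 9 lay between the groups, nearer to Vehicle. Kcna4 changed by -1.02 ± 0.14 on the log2 scale (SE, edgeR adjusted p = 7.24e-05). Kcnj4, an inward rectifier, averaged 48.7 ± 8.05 CPM in Vehicle and 74.1 ± 7.65 CPM in Basal libraries (SD, n = 4 each), a log2 fold change of -0.61 ± 0.11 (SE, edgeR adjusted p = 0.0014). The silent subunits Kcng1 (-0.69 ± 0.13 (SE, edgeR adjusted p = 0.00163)) and Kcnv1 (-0.57 ± 0.13 (SE, edgeR adjusted p = 0.00659)), which modify other channels, were lower on the same log2 scale. Of 31 calcium, sodium and HCN channel genes 0 were higher and 2 lower (Cacnb1 and Cacna1i, 6.45%), and neither fall held. Of 33 monoamine and acetylcholine receptors 0 were higher and 4 lower (Htr1b, Htr4, Adra2c and Adrb1, 12.1%, median -0.12). Htr1b (chromosome 9, 81628291 to 81633828), a serotonin receptor of nerve endings, stood at 8.88, 5.85, 6.64 and 7.11 CPM in the Vehicle libraries, against 16.5, 9.21, 15.6 and 14.1 CPM in the Basal libraries, and it was the fall of this list that held. The highest Vehicle library was just below Basal 9. Htr1b changed by -0.96 ± 0.15 on the log2 scale (SE, edgeR adjusted p = 0.000266). Of 33 neuropeptides and their receptors 0 were higher and 3 lower (Npy2r, Vipr1 and Sstr4, 9.09%). The call of Sstr4 did not hold. Npy2r, a presynaptic receptor of neuropeptide Y, stood at 45.1, 32.9, 40.6 and 39.9 CPM in the Vehicle libraries, against 71.4, 47.5, 72.7 and 68.99 CPM in the Basal libraries. Basal 9 was near the Vehicle libraries and far below the other Basal libraries. Npy2r changed by -0.72 ± 0.16 on the log2 scale (SE, edgeR adjusted p = 0.00807), and it was not called without both Vehicle 16 and Vehicle 29 (adjusted p = 0.135) or with the mitochondrial share as a covariate (0.0549). With the dentate gyrus and CA1 scores as covariates the calls of Kcnj4 (adjusted p = 0.0783), Kcng1 (0.0605), Kcnv1 (0.108), Htr1b (0.0585) and Npy2r (0.321) were lost.

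The subunits of the fast transmitter receptors gave almost no calls. Of 23 AMPA receptor subunits and auxiliary proteins 1 was lower (Cacng3, 4.35%, beside 2.47% of all tested genes) and 0 higher. Its call was lost without Basal 14 (adjusted p = 0.0597), Basal 27 (0.103) or Vehicle 3 (0.0598). Of 13 NMDA and kainate receptor subunits, 10 metabotropic glutamate receptors and 21 genes of GABA synthesis, transport and reception, 0 passed in any list (edgeR), with medians of -0.15, -0.03 and -0.04. Of 22 CaM kinase genes and their regulators 2 were higher (Camk2d and Rcan2, 9.09%, beside 1.64%) and 0 lower. The call of Camk2d did not hold. Rcan2, an inhibitor of calcineurin, averaged 189 ± 28.4 CPM in Vehicle and 135 ± 12.97 CPM in Basal libraries (SD, n = 4 each), a log2 fold change of 0.48 ± 0.10 (SE, edgeR adjusted p = 0.00586) that became 0.32 without both Vehicle 16 and Vehicle 29 (adjusted p = 0.174) and 0.26 with the dentate gyrus and CA1 scores as covariates (0.406).

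Developmental pathways and progenitor genes held several of the largest falls. Insc (chromosome 7, 114743694 to 114850383), which orients the spindle of dividing progenitors, stood at 1.45, 1.796, 1.004 and 1.28 CPM in the Vehicle libraries, against 5.89, 5.15, 5.43 and 5.403 CPM in the Basal libraries. Each Vehicle library was below 2 CPM and each Basal library above 5 CPM. Insc changed by -1.98 ± 0.26 on the log2 scale (SE, edgeR adjusted p = 2.87e-05). Sox21, a factor of neural progenitors, averaged 3.44 ± 0.471 CPM in Vehicle and 7.65 ± 0.566 CPM in Basal libraries (SD, n = 4 each), a log2 fold change of -1.15 ± 0.22 (SE, edgeR adjusted p = 0.00166). Of 41 Wnt ligands, receptors and inhibitors 2 were higher (Wnt3 and Fzd2, 4.88%, beside 1.64% of all tested genes) and 3 lower (Wnt7a, Wnt9a and Rspo3, 7.32%, beside 2.47%), with a median of -0.0022. The calls of Wnt3 and Wnt7a did not hold. Wnt9a, a ligand, stood at 3.72, 4.82, 2.9002 and 1.79 CPM in the Vehicle libraries, against 16.3, 4.55, 15.99 and 10.8 CPM in the Basal libraries. Basal 9 lay inside the Vehicle range and the other Basal libraries were far above. Wnt9a changed by -1.85 ± 0.31 on the log2 scale (SE, edgeR adjusted p = 0.000492), but it missed the threshold in a fit of these 2 groups alone (adjusted p = 0.0822). Fzd2, a receptor of Wnt ligands, averaged 13.4 ± 2.22 CPM in Vehicle and 6.58 ± 2.41 CPM in Basal libraries (SD, n = 4 each), a log2 fold change of 1.04 ± 0.21 (SE, edgeR adjusted p = 0.00333). Of 39 TGF-beta and BMP genes 0 were higher and 3 lower (Acvr1, Smad3 and Grem1, 7.69%, beside 2.47%), and the falls of the receptor Acvr1 (-0.55 ± 0.10 (SE, edgeR adjusted p = 0.000866)) and of the signal carrier Smad3 (-0.53 ± 0.11 (SE, edgeR adjusted p = 0.00426)) held. Acvr1 (adjusted p = 0.0765), Smad3 (0.170) and Fzd2 (0.138) were not called with the dentate gyrus and CA1 scores as covariates, and 0 TGF-beta and BMP genes were lower.

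**Figure D4:**
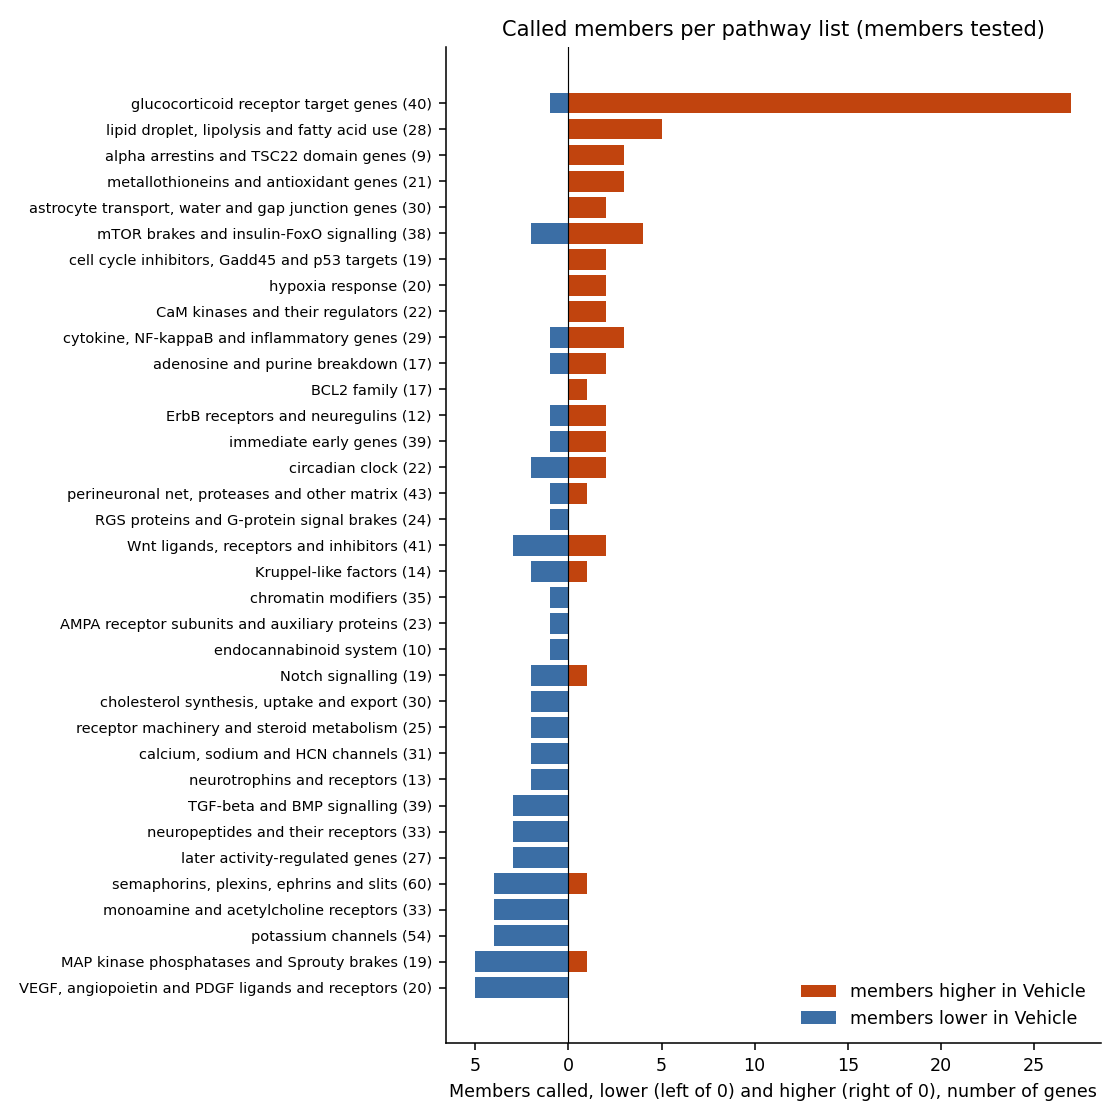
Number of called members in each pathway list with a called gene, with members higher in Vehicle to the right of 0 and members lower in Vehicle to the left, and the number of tested members in parentheses. The receptor target list has 27 members higher and 1 lower, and the lists at the bottom, led by the VEGF family with 5, have lower members and few or no higher ones. Lists share members and were chosen with earlier results of these data known.

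Several abundant genes held their calls. Mat2a (chromosome 6, 72432799 to 72439558), which makes the methyl donor S-adenosylmethionine, stood at 301, 311, 302 and 328 CPM in the Vehicle libraries, against 193, 237, 192 and 174 CPM in the Basal libraries. All Vehicle libraries were above 300 CPM and all Basal libraries at 236.9 CPM or less. Mat2a changed by 0.64 ± 0.11 on the log2 scale (SE, edgeR adjusted p = 0.000534). Azin1, which protects the polyamine enzyme ornithine decarboxylase, averaged 244 ± 17.2 CPM in Vehicle and 181 ± 23.3 CPM in Basal libraries (SD, n = 4 each), a log2 fold change of 0.43 ± 0.09 (SE, edgeR adjusted p = 0.0029). Mgea5, the enzyme that takes the sugar O-GlcNAc off proteins, averaged 381 ± 23.2 CPM in Vehicle and 295 ± 16.8 CPM in Basal libraries (SD, n = 4 each), a log2 fold change of 0.37 ± 0.07 (SE, edgeR adjusted p = 0.00331). Among the abundant genes that were lower, Syne1, a linker of the nucleus to the cytoskeleton, averaged 462 ± 45.3 CPM in Vehicle and 625 ± 22 CPM in Basal libraries (SD, n = 4 each), a log2 fold change of -0.43 ± 0.10 (SE, edgeR adjusted p = 0.0111). The ganglioside sialyltransferase St6galnac5 stood at 179.7, 122, 179.8 and 183 CPM in the Vehicle libraries, against 243, 223, 249 and 254 CPM in the Basal libraries. Vehicle 16 was far below the other Vehicle libraries, and the groups did not overlap. St6galnac5 changed by -0.55 ± 0.11 on the log2 scale (SE, edgeR adjusted p = 0.00271). With the dentate gyrus and CA1 scores as covariates St6galnac5 (adjusted p = 0.401), Syne1 (0.208) and Azin1 (0.0800) were not called, and without both Vehicle 16 and Vehicle 29 Syne1 was not (0.0697), nor with the mitochondrial share (0.0575).

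Clock genes were called in both directions. Of 22 tested, Nr1d2 and Rora were higher (9.09%, beside 1.64% of all tested genes) and Arntl and Cry2 were lower (9.09%, beside 2.47%, median -0.02). Arntl, the core activator of the clock, averaged 33.8 ± 4.38 CPM in Vehicle and 47.5 ± 3.42 CPM in Basal libraries (SD, n = 4 each), a log2 fold change of -0.49 ± 0.11 (SE, edgeR adjusted p = 0.0111), a call lost without Vehicle 29 (adjusted p = 0.0567), without both Vehicle 16 and Vehicle 29 (0.171), with the mitochondrial share (0.0681) and with the dentate gyrus and CA1 scores (0.242). Rora, a nuclear receptor that is also a thalamus marker, stood at 75.1, 140.4, 48.5 and 65.96 CPM in the Vehicle libraries, against 43.4, 44.99, 38.5 and 43.7 CPM in the Basal libraries. Vehicle 16, the library with the highest thalamus score, was the highest by far. The log2 fold change of 0.95 ± 0.24 (SE, edgeR adjusted p = 0.0202) became 0.57 without Vehicle 16 (adjusted p = 0.110), and the call was lost without Basal 1 (0.0568), Basal 14 (0.0831) or Basal 27 (0.0551), as with the dentate gyrus and CA1 scores (0.697). With the thalamus and neocortex scores, the former of which includes Rora, the change was 0.49 (adjusted p = 0.0595). The call was also lost with only these 2 groups (0.167), with the mitochondrial share (0.0870) and without a filter (0.0588). No clock call held in all fits that left out a library.

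Marker lists of cell types and regions were counted beside these genes. Their shares stand beside 1.64% higher and 2.47% lower of all tested genes. Of 17 dentate gyrus markers 1 was higher and 3 lower (median -0.17), and of 15 CA1 markers 0 were higher and 3 lower (median -0.26), and none of these calls held. Of 22 astrocyte markers 2 were higher (Gjb6 and Htra1, 9.09%) and 1 lower (Fgfr2, 4.55%), with a median of 0.14, and they summed to 7485 to 9287 CPM in Vehicle and 6840 to 8053 CPM in Basal libraries. Their median turned to -0.12 with the mitochondrial share as a covariate and to -0.08 with the dentate gyrus and CA1 scores. The call of Htra1, a secreted protease, was lost with those scores (adjusted p = 0.124) and without both Vehicle 16 and Vehicle 29 (0.0519). Of 24 genes of myelinating oligodendrocytes 0 were higher and 3 lower (12.5%, median -0.31), with sums of 5727 to 8595 CPM in Vehicle and 6624 to 9151 CPM in Basal libraries. None of the 3 falls held. Opalin, a membrane protein of myelin, averaged 21.3 ± 2.71 CPM in Vehicle and 34.6 ± 5.19 CPM in Basal libraries (SD, n = 4 each), a log2 fold change of -0.70 ± 0.16 (SE, edgeR adjusted p = 0.00926), and the call was lost without Basal 1 (adjusted p = 0.0508), without both Vehicle 16 and Vehicle 29 (0.0920) and with the dentate gyrus and CA1 scores (0.0887). Of 20 microglia markers and 18 interneuron markers 0 passed (edgeR), with medians of 0.03 and -0.01. Of 19 thalamus markers 2 were higher (Rora and Necab1, 10.5%) and 0 lower, and neither call held. The median of the list was 0.91. Its scores were 1.10, 1.97, -0.33 and -0.21 in Vehicle libraries, against 0.34, -0.25, -0.21 and 0.27 in Basal libraries. Vehicle 3 and Vehicle 16 were above every Basal library, Vehicle 29 was among them and Vehicle 23 was below them. Of 23 neocortex markers 2 were higher (Otof and Cplx3, 8.70%) and 2 were lower (8.70%). Of these calls that of Otof alone held. Without Vehicle 29 the log2 fold change of Cplx3 was 0.37 (edgeR adjusted p = 0.591). Otof, a calcium sensor of vesicle release, stood at 1.34, 4.21, 1.23 and 5.22 CPM in the Vehicle libraries, against 0.614, 0.658, 0.66002 and 1.06 CPM in the Basal libraries. Its high values were in Vehicle 16 and Vehicle 29, the libraries with the highest neocortex scores (0.63 and 0.51). Otof is itself a member of that marker list. Its log2 fold change of 1.99 ± 0.37 (SE, edgeR adjusted p = 0.00139) became 0.77 without both libraries (adjusted p = 0.316) and 1.07 with the dentate gyrus and CA1 scores (0.354). The call was also lost in a fit of these 2 groups alone (adjusted p = 0.0752). It was kept when the covariates were the neocortex and thalamus scores. Choroid plexus markers were uneven, with 0 of 20 called (edgeR), a median of 1.199 and sums of 280 to 1808 CPM in Vehicle and 262 to 715 CPM in Basal libraries. Ttr, a carrier of thyroid hormone made by that tissue, stood at 369, 830.2, 13.8 and 129 CPM in the Vehicle libraries, against 210.4, 7.78, 233 and 50.99 CPM in the Basal libraries. The part of these cell types and regions in the results above was not tested beyond the fits with region scores as covariates.

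**Figure D5:**
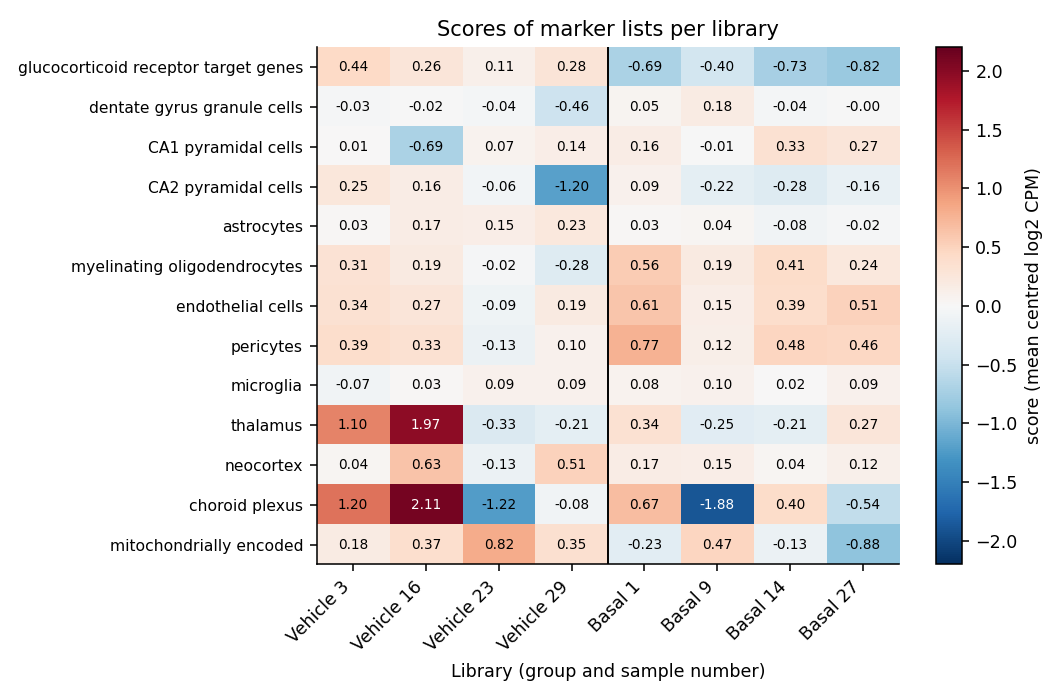
Score of the receptor target list and of 12 marker lists in each library, as the mean over members of log2 CPM centred per gene over the 28 libraries, with the Vehicle libraries left of the line and the Basal libraries right of it. The target list separates the groups, from 0.11 to 0.44 in Vehicle and from -0.82 to -0.40 in Basal libraries. The CA1 list is low in Vehicle 16, the CA2 list is low in Vehicle 29, and the thalamus list is high in Vehicle 3 and Vehicle 16.

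The other conditioned groups of the series, which received Cort, RU486, C108 or C118 (n = 5 each), share the Basal libraries as their untouched counterpart, so their values are given side by side and not tested against each other here. Fkbp5 averaged 167 ± 9.89 CPM in Cort, 114 ± 8.28 in RU486, 131 ± 12.8 in C108, 123 ± 15.96 in C118 and 130.2 ± 12.97 in Vehicle libraries, against 67.5 ± 9.53 CPM in Basal libraries (SD). Every conditioned group was above Basal. Cdkn1a averaged 54.8 ± 15.2 CPM in Cort, 15.5 ± 4.46 in RU486, 24.9 ± 12.1 in C108, 20.6 ± 2.003 in C118 and 44.4 ± 5.72 in Vehicle libraries, against 7.43 ± 2.88 CPM in Basal libraries (SD). The RU486, C108 and C118 averages lay between those of Vehicle and Basal. Cdh10 averaged 24.2 ± 1.26 CPM in Cort, 26.6 ± 2.46 in RU486, 25.5 ± 2.54 in C108, 26.7 ± 3.37 in C118 and 27.5 ± 1.47 in Vehicle libraries, against 49.9 ± 1.15 CPM in Basal libraries (SD). All 5 conditioned groups lay near each other and below Basal. Erbb3 averaged 4.102 ± 1.09 CPM in Cort, 5.31 ± 1.44 in RU486, 4.72 ± 1.28 in C108, 5.203 ± 1.68 in C118 and 4 ± 0.616 in Vehicle libraries, against 15.01 ± 3.08 CPM in Basal libraries (SD). It too was low in all 5 conditioned groups. Otof averaged 1.01 ± 0.374 CPM in Cort, 0.849 ± 0.251 in RU486, 0.976 ± 0.178 in C108, 0.995 ± 0.249 in C118 and 2.999 ± 2.02 in Vehicle libraries, against 0.748 ± 0.2098 CPM in Basal libraries (SD), so that the Vehicle mean alone was high, from the libraries named above.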

How the data were processed

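Per the labels' protocols, RNA of the frozen hippocampi was isolated with a NucleoSpin kit, and stranded mRNA libraries were sequenced in read pairs on the DNBseq platform of BGI. FastQC, MultiQC, HTSeq 0.6.1 and mm10 appear in the submitters' processing notes, and the sources used here state no aligner, annotation release or strand setting. The deposited values are raw read counts for each Ensembl gene in 28 libraries of 6 groups, made by the authors with HTSeq. Its 5 summary rows, 12.6% to 19.7% of all counts, were left out of library sizes and tests. Of 50686 genes, 50462 were matched to GENCODE M21 (GRCm38), the source of coordinates. Within groups, every pair of libraries differed by more than counting noise (lowest chi-square per degree of freedom 5.94).

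Groups followed the titles. The filterByExpr function (minimum count 10, minimum total 15) left 16735 genes. A quasi-likelihood model of edgeR 4.0.16 (TMM, robust, R 4.3.3) was fitted to all 28 libraries, with 22 residual degrees of freedom and a common biological coefficient of variation of 0.133. Vehicle was set against Basal in a two-sided test, with Benjamini-Hochberg adjustment over the tested genes and a threshold of 0.05. Scores used log2 CPM with a prior count of 2. The standard error is the log2 fold change over the square root of the F statistic. At this depth counting noise matters for genes near 1 CPM, and the spread between libraries sets the precision elsewhere.

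Alternatives were RLE normalization, 2 other filters, DESeq2 1.42.0, voom in limma 3.58.1, only the 2 groups, region scores as covariates, a minimum fold of 1.2 (glmTreat) and leaving out libraries. The mitochondrial share as a covariate was added after seeing the data. The members and the 62 gene lists were chosen with earlier results of these data known. Lists share members, so a gene can be counted in several of them. The rule named 128 genes. Among calls that hold without each library in turn, it took the 15 largest rises and 15 largest falls at a mean level of 1 CPM or more, and the 8 of smallest p and the 6 of highest level in each direction. It added up to 4 members of each list and 12 genes fixed by name, Fkbp5, Nr3c1 and Fos among them. Other list members are named to complete a count, after their values were seen. Some genes that the rule or the lists hold are not reported here.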

Additional observations from a re-analysis of the deposited data

Results flagged for a closer look

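A library far from the other 3 of its group was found at 24 of 254 sets of values examined (9.45%). For independent, normally distributed values the cutoff would give about 1 in 20. The sets share the same libraries, so no excess over chance can be read from their share. Each set held the 4 libraries of a group at a gene chosen by the naming rule or at a library measure. No explanation was tested.

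Basal 9 gave 8 of these values, each on the side of the Vehicle libraries. It was high in Basal at Tsc22d3 (63.2 CPM, others 38.1 to 42.1), Arrdc2 (15.9, others 8.50 to 8.59), Gm19439, a predicted gene (10.3, others 3.66 to 4.61), Rcan2 (154.7, others 127.9 to 130.8), Sgk1 (130.1, others 49.6 to 58.3) and Errfi1 (70.3, others 46.1 to 47.7). It was low at Npy2r (47.5, others 69.0 to 72.7) and at 2810459M11Rik, a gene with no assigned function (11.1, others 19.4 to 20.7). Leaving it out gave 940 called genes, 408 higher and 532 lower. The mitochondrial share of Basal 9 (7.54%) also lay inside the Vehicle range.

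Vehicle 29 stood apart at 5 genes. It was high at Pnma1 (1.69 CPM, others 0.781 to 0.878), Htra1 (200.7, others 146.7 to 151.9), Fzd2 (16.7, others 11.9 to 12.7) and Pdk4 (23.9, others 14.6 to 15.5), and low at Eif4ebp1 (1.84, others 2.29 to 2.38). Vehicle 3 was high at Klf15 (34.3, others 29.8 to 30.4), Txnip (50.5, others 31.9 to 34.4) and Efnb3 (133.1, others 115.8 to 117.8). Vehicle 23 was low at Gm19439 (17.4, others 23.4 to 24.4) and Spred3 (34.8, others 41.2 to 42.4) and high at Arc (99.5, others 56.1 to 63.3). St6galnac5 was low in Vehicle 16 (121.5, others 179.6 to 182.7).

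In the remaining Basal libraries, Basal 27 was high at Lcn2 (0.0965 CPM, others 0) and Otof (1.06, others 0.614 to 0.660), Basal 1 was low at Herpud1 (35.3, others 39.7 to 40.4), and Basal 14 was high at Npas4 (5.84, others 3.33 to 3.53).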

How the results depend on the processing

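No paired analysis was possible because each library has a sample number of its own and the groups share none. The 688 called genes (274 higher, 414 lower) ranged from 346 to 940 when a library was left out, with 140 to 408 higher and 206 to 532 lower. With only the 2 groups in the fit 355 were called (140 higher, 215 lower), without both Vehicle 16 and Vehicle 29 378 (183 and 195), with the dentate gyrus and CA1 scores as covariates 186 (104 and 82), and with a minimum fold of 1.2 153 (75 and 78). DESeq2 called 1007 (447 and 560). Counts stayed within 1.5 times under RLE normalization, both filters, voom, the thalamus and neocortex scores and the mitochondrial share, a setting chosen after seeing the data (546 called). The causes were not tested. Of 106 named called genes 37 passed in all 19 alternatives and 0 reversed. Named calls were lost for 62 genes with the dentate gyrus and CA1 scores, 39 with the minimum fold, 29 without both Vehicle 16 and Vehicle 29, 16 with only the 2 groups and 14 with the mitochondrial share. Lcn2 had no adjusted p in DESeq2. The differences between the groups in the library measures kept their direction when shares were taken of all counts. Depth limits genes below about 1 CPM, where 14 higher and 14 lower calls fell.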

Other observations

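Other calls that held lie outside the pathways described. Mlph, which ties pigment vesicles to myosin in melanocytes, stood at 3.05, 2.41, 3.74 and 4.61 CPM in the Vehicle libraries, against 1.07, 1.37, 1.22 and 1.21 CPM in the Basal libraries, a log2 fold change of 1.499 ± 0.20 (SE, edgeR adjusted p = 2.71e-05). Every Vehicle library was above every Basal library. The predicted gene Gm19439 (chromosome 3, 88030878 to 88033150, GRCm38) stood at 24.3, 24.4, 17.3 and 23.4 CPM in the Vehicle libraries, against 4.61, 10.3, 3.66 and 4.25 CPM in the Basal libraries, a log2 fold change of 1.98 ± 0.28 (SE, edgeR adjusted p = 8.32e-05). The groups did not overlap, and Basal 9 was the highest Basal library. Stac, an adaptor of L-type calcium channels, averaged 3.595 ± 0.878 CPM in Vehicle and 8.31 ± 1.45 CPM in Basal libraries (SD, n = 4 each), a log2 fold change of -1.21 ± 0.19 (SE, edgeR adjusted p = 0.000251). Nfix, a transcription factor of neural differentiation, averaged 192 ± 25.7 CPM in Vehicle and 266 ± 21.7 CPM in Basal libraries (SD, n = 4 each), a log2 fold change of -0.47 ± 0.11 (SE, edgeR adjusted p = 0.00795). Lfng, a glycosyltransferase that tunes Notch receptors, averaged 18.9 ± 3.73 CPM in Vehicle and 10.2 ± 2.203 CPM in Basal libraries (SD, n = 4 each), a log2 fold change of 0.88 ± 0.19 (SE, edgeR adjusted p = 0.0057). It was the 1 higher member of 19 Notch genes (5.26%, beside 1.64% of all tested genes). The list had 2 lower members (Notch1 and Jag2, 10.5%, beside 2.47%), neither of which held. With the dentate gyrus and CA1 scores as covariates the calls of Stac (adjusted p = 0.0528), Nfix (0.350) and Lfng (0.179) were lost, and that of Nfix also without both Vehicle 16 and Vehicle 29 (0.183).

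Matrix and immune lists were mostly without calls. Of 34 collagens 0 passed (edgeR, median 0.08). Of 27 interferon-stimulated and antigen presentation genes 0 passed (edgeR, median -0.03). Of 29 cytokine, NF-kappaB and inflammatory genes 3 were higher (Lcn2, Nfkbia and Il6ra, 10.3%, beside 1.64% of all tested genes) and 1 lower (Cxcl12, 3.45%, beside 2.47%), with a median of -0.05. The calls of Nfkbia and Il6ra did not hold. Cxcl12, a chemokine, averaged 43.1 ± 4.86 CPM in Vehicle and 60.5 ± 6.22 CPM in Basal libraries (SD, n = 4 each), a log2 fold change of -0.49 ± 0.11 (SE, edgeR adjusted p = 0.00801), which was not called without both Vehicle 16 and Vehicle 29 (adjusted p = 0.0869) or with the dentate gyrus and CA1 scores (0.173). The E-box letters CACGTG, the same on both strands, occurred in the promoter windows of 16.7% of genes called higher, 8.64% of genes called lower and 11.2% of tested genes.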
